A study of Homo sapiens with 10 samples.

Results

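Divergent baits are captured HindIII fragments of the human genome (GRCh37) on which at least 1 gene of the plus strand and at least 1 gene of the minus strand start. Promoter Capture Hi-C (PCHi-C) pulls out ligation products of such baited fragments and reads which distal fragments they contact, and mRNA-seq of the same cell types gives the expression of the genes. The cells were H9 human embryonic stem cells (ESCs), an established line grown in Pluripro medium, and neuroectodermal cells (NECs) derived from H9 and collected on day 7. Each cell type had 2 mRNA-seq libraries and 2 PCHi-C replicates, and the second ESC replicate of the PCHi-C joined technical replicates. All samples come from 1 cell line. The start of a gene was the first base of its annotated span on its own strand, so it is the outermost annotated start and not the start most used in these cells. By this rule 3015 of 21833 baits (13.8%) were divergent. They held the starts of 6553 genes, 29.5% of the 22223 genes that started on any bait, from a table of 31017.

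Transcription at many mammalian promoters proceeds in both directions, and a CpG-rich promoter can serve a pair of genes that are read away from each other. Such bidirectional promoters are known for genes of DNA repair, replication and mitochondrial function, and antisense noncoding RNAs often start next to genes of developmental transcription factors. In PCHi-C a pair of genes on 1 restriction fragment shares 1 viewpoint. Its promoter-interacting regions (PIRs, the fragments found in contact with the bait) are therefore the same for both genes by construction, and contacts cannot be assigned to one of them.

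Of the divergent baits, 2598 held exactly 1 start on each strand, 346 held 3 starts and 71 held 4 or more, up to 7. The nearest opposite-strand pair was taken from each bait. In these 3015 pairs the starts lay a median of 387 bases apart (quartiles 137 and 1198.5). In 1244 pairs (41.3%) the genes were read away from each other with the starts at most 1 kb apart (head to head within 1 kb), and in 419 (13.9%) the head-to-head gap was longer. In 895 pairs (29.7%) the gene bodies overlapped with the starts up to 1 kb apart, and in 426 (14.1%) they overlapped with starts further apart. The remaining 31 pairs were short genes that faced each other tail to tail. Both genes were protein-coding in 1372 pairs (45.5%), and 1264 pairs (41.9%) joined a protein-coding with a long noncoding gene. A divergent bait had a median length of 8451 bases, against 6539 for the 14451 baits with a single start and 11254.5 for the 572 baits with several starts on 1 strand. On most chromosomes between 11.3% and 18.0% of the baits were divergent. Chromosome X had 8.91%, and chromosome 18 had 4.89% (17 baits), where the count table lists only 11 long noncoding genes.

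**Figure D1:**
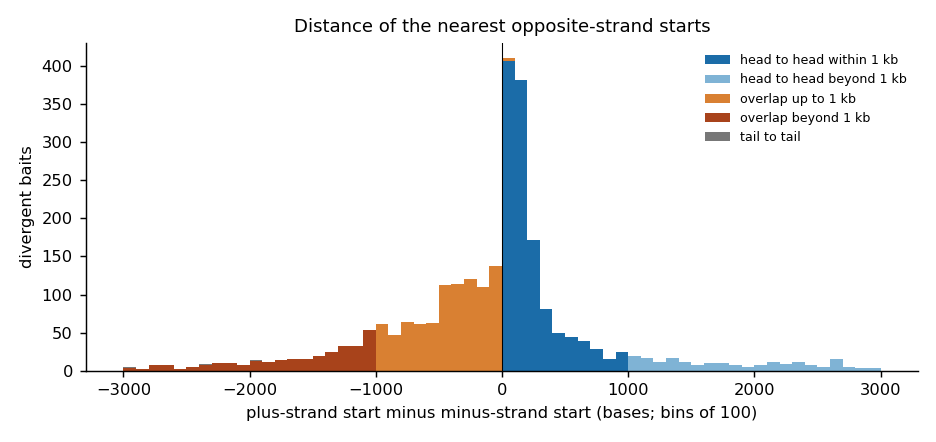
Number of divergent baits (y axis) by the distance from the minus-strand start to the plus-strand start of the nearest pair (x axis, in bases, bins of 100), coloured by arrangement; positive distances are head-to-head gaps, negative ones are overlaps or tail-to-tail pairs. The plot covers 2639 of the 3015 baits, and the tallest bin, from 0 to 100 bases, holds 410.

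The DNA between head-to-head starts is short enough to be shown for pairs that stand for the kinds of behaviour described below. Each line gives the plus strand of the GRCh37 reference, 5′ to 3′, strictly between the annotated starts, with the minus-strand gene named first. None of these stretches lies in an annotated exon. Capitals mark matches to 6 motifs searched on both strands: the GC box GGGCGG, the CCAAT box CCAAT, the TATA box TATAAA, and the ETS (CCGGAAGT), NRF1 (GCGCATGC) and YY1 (AAGATGGC) motifs. PPAT and PAICS, both enzymes of purine synthesis, are separated by chr4:57301782-57301906. TK1 and AFMID lie on either side of chr17:76183315-76183397. TMEM53 and C1orf228 flank chr1:45140228-45140363, AC073283.4 and EPCAM flank chr2:47572214-47572296, and CLDN6 and TNFRSF12A flank chr16:3070073-3070312. The last line, chr16:21610707-21610796, separates AC005632.1 from METTL9 on one of the baits with the most contacts.
PPAT and PAICS: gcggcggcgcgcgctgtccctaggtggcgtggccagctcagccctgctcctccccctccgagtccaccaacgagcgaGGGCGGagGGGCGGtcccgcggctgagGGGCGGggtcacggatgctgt
TK1 and AFMID: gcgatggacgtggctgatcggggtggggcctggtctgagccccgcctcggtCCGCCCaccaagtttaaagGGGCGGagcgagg
TMEM53 and C1orf228: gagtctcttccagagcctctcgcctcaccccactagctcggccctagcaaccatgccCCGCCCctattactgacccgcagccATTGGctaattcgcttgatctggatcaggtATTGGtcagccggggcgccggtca
AC073283.4 and EPCAM: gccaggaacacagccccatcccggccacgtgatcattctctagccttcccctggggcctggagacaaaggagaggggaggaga
CLDN6 and TNFRSF12A: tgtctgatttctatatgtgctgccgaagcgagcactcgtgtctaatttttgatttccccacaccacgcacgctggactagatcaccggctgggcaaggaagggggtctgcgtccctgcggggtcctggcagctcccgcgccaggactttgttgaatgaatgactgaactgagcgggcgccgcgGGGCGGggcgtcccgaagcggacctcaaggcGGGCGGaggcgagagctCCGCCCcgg
AC005632.1 and METTL9: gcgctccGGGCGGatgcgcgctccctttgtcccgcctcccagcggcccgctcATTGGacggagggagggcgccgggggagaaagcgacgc

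The stretch between PPAT and PAICS had 76.0% GC and 3 GC boxes, and that between TK1 and AFMID had 69.9% GC with 2 GC boxes, 1 on each strand. None of the 6 motifs was found in the 83 bases between AC073283.4 and EPCAM, of which 62.7% were G or C. Over all starts, windows from 250 bases before to 50 bases after the start were compared. Starts on divergent baits had a median CpG ratio (observed over expected) of 0.77, and those of head-to-head pairs within 1 kb had 0.86, against 0.54 for starts alone on their bait and 0.65 for all 22221 starts with a window. A GC box was present in 71.5% of the windows of close head-to-head pairs, in 42.9% of those of single starts and in 47.8% of all. The ETS motif was present in 10.9%, 3.13% and 4.25%, the NRF1 motif in 6.47%, 2.55% and 3.07%, and the YY1 motif in 5.14%, 2.12% and 2.62%, in the same order. The TATA box was less frequent in close head-to-head pairs (4.42%) than in single starts (12.6%) or all (10.7%). For the CCAAT box the shares were close, 37.6%, 34.9% and 34.4%. Among protein-coding genes alone the GC box was in 74.7% of close head-to-head windows and 50.1% of single-start windows. Windows of genes that start near each other share bases, so 1 match can count for both genes. These shares are descriptions of the sequence and carry no test.

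The mRNA-seq libraries held between 19234087 and 25356382 reads in genes. The ESC libraries shared a sequencing lane and the NEC libraries shared a different one, which means that cell type and lane cannot be told apart. Reads were counted without regard to strand, and where a pair overlaps its shared reads cannot be assigned to either gene. Differences were tested across all 17564 genes with enough reads (edgeR quasi-likelihood test), and a gene was called where its Benjamini-Hochberg adjusted p was under 0.05 and its log2 fold change, NEC against ESC, exceeded 1.5 in size. With 2 libraries a group the p-values measure the spread between these libraries. In bulk samples fewer cells of a type and less RNA per cell cannot be told apart. Of 9 listed pluripotency markers found in the table, 8 were called lower in NECs, and their summed level, in counts scaled to the normalised library size (CPM), went from 6578 and 7072 in ESCs to 1083 and 1670 in NECs. All 10 neuroectoderm markers were called higher, with sums of 7.42 and 5.66 CPM in ESCs and 445 and 339 in NECs. The summed level of 10 neural crest markers was 149 and 137 CPM in ESCs, 261 in the first NEC library and 127 in the second. Of these 10, 6 were called higher and 1 lower. The summed level of 10 mesendoderm markers was 40.5 and 109 CPM in ESCs and 8.38 and 6.40 in NECs. Of the 9 tested, 7 were called lower and 0 higher.

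Of the 6553 genes on divergent baits 5047 passed the filter on low counts, 77.0%, against 65.5% of the genes alone on their bait. Among them 432 were called higher in NECs (8.56%) and 306 lower (6.06%). The background over all tested genes was 11.4% higher and 9.68% lower, so both shares were below it. Of the protein-coding members 7.44% were called higher and 5.18% lower, whereas protein-coding genes alone on their bait were called higher in 12.3% and lower in 9.82%. Of 712 tested long noncoding members 14.2% were called higher and 10.5% lower. The differences between these shares were not tested. The median log2 fold change was 0.0062 over the tested members and 0.014 over all tested genes.

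Both genes passed the filter in 1921 pairs, 1 gene in 816 and neither in 278. In 57 pairs both genes were called higher in NECs and in 40 both were called lower, while in 5 pairs the genes were called in opposite directions. In 301 pairs 1 gene was called and its partner was not, and in 1518 neither was. Where a gene was called higher, its partner was called higher in 38.0% of cases, against 11.4% of all tested genes. Where a gene was called lower, the partner was lower in 39.0%, against 9.68%. These shares were 51.5% and 61.8% in overlapping pairs with shared exons, whose reads can count for both genes. They were 28.4% and 21.8% in pairs with bodies separate by the count table's spans, some of which share annotated exons. In close head-to-head pairs without shared exons they were 23.5% and 7.41%, and for neighbours on different baits 17.7% and 12.8%. In the 646 such close pairs 85 genes were called higher and 54 lower, and in the 1040 pairs of neighbours 192 and 156. The groups thus differ in how often genes were called, and 11.4% and 9.68% are not their own rates. The log2 fold changes of the paired genes had a Spearman's rho of 0.33 across the 1921 pairs and had the same sign in 60.2%. Pairs are not replicates, and both genes were counted in the same 4 libraries, so no p is given.

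Likeness differed by arrangement. In 805 close head-to-head pairs rho was 0.22, the sign was the same in 57.3%, and 13 pairs were called higher and 6 lower in both genes. In the 646 of them whose annotated exons do not overlap, rho was 0.17. Of these, 10 pairs were called higher and 2 lower in both genes. With head-to-head gaps beyond 1 kb rho was 0.24 in 221 pairs. In overlapping pairs rho was 0.40 with starts up to 1 kb apart (657 pairs) and 0.55 with starts further apart (226 pairs). Where the bodies overlapped and annotated exons overlapped too, rho was 0.54 in 612 pairs, and where the bodies overlapped without a shared exon it was 0.19 in 215. Reads counted for both genes were not separated, and their part in the higher values was not tested. For comparison, 1040 head-to-head neighbours with starts on different baits at most 50 kb apart had a rho of 0.18, with 17 pairs called higher, 10 lower and 10 in opposite directions. Nearest pairs on 1 strand of 1 bait had 0.51 in 309 pairs, and 0.28 in the 102 whose bodies did not overlap.

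Among close head-to-head pairs, rho was 0.19 in 551 pairs of protein-coding genes and 0.21 in 190 pairs with a long noncoding gene. In overlapping pairs with starts beyond 1 kb it was 0.28 in 101 protein-coding pairs and 0.75 in 100 pairs with a long noncoding gene. By rho alone, close head-to-head pairs were least alike at the shortest gaps. The coefficient was 0.06 in 294 pairs with a gap of at most 100 bases, 0.23 in 252 pairs up to 200 bases, 0.29 in 182 pairs up to 500 bases and 0.50 in 77 pairs up to 1 kb. Between 1 and 5 kb it was 0.32 in 147 pairs. The median absolute difference of the paired log2 fold changes did not follow this order. It was 0.62 at gaps up to 100 bases, 0.68 up to 200, 0.60 up to 500 and 0.71 up to 1 kb.

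**Figure D2:**
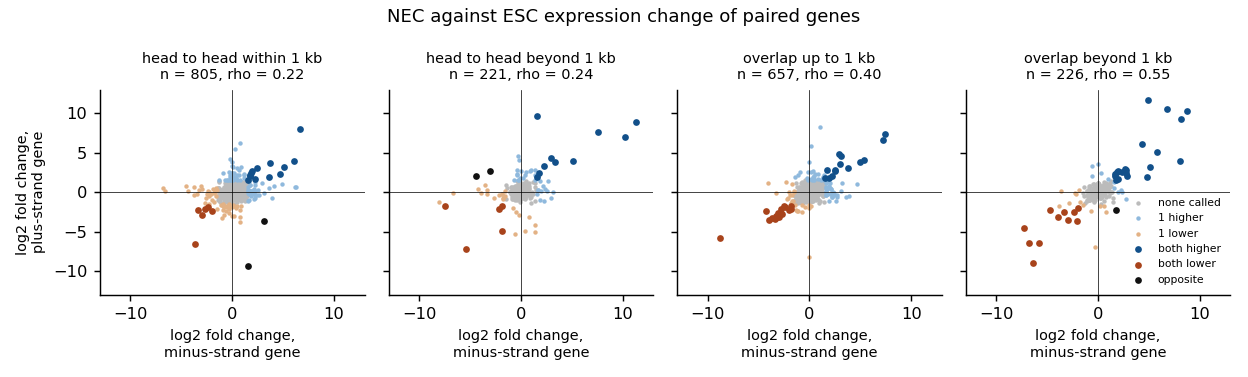
Log2 fold change (NEC against ESC) of the plus-strand gene (y axis) against that of the minus-strand gene (x axis) for pairs with both genes tested, 1 panel per arrangement and coloured by how many genes of the pair were called. Points spread along both axes where 1 gene changed alone, and rho runs from 0.22 in close head-to-head pairs to 0.55 in pairs that overlap with starts beyond 1 kb; values of genes with almost no reads in 1 cell type depend on the prior count of the fit.

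A list of 23 gene pairs known from textbooks as divergent neighbours was looked up. Of these, 13 were the nearest pair of a divergent bait, 1 shared a divergent bait on which other starts were nearer, 7 did not share a divergent bait and 2 had a gene outside the table. EMX2 and EMX2OS were the only one of the 13 with a called gene. PAICS and PPAT catalyse different steps of purine synthesis and start 126 bases apart (bait chr4:57301054-57308816). PAICS had 885 and 852 CPM in ESCs and 511 and 611 in NECs, and PPAT had 126 and 121 in ESCs and 79.2 and 87.6 in NECs. The groups did not overlap for either gene. Log2 fold changes were −0.63 ± 0.12 (SE) for PAICS (adjusted p = 0.00509) and −0.57 ± 0.09 for PPAT (adjusted p = 0.00234), under the fold threshold, and their ratio moved by −0.07 ± 0.09 (adjusted p = 0.55). MCM4, a subunit of the replicative helicase, and PRKDC, a kinase of double-strand break repair, start 2 bases apart. Their log2 fold changes were −0.67 ± 0.12 and −0.64 ± 0.14, and the ratio moved by −0.04 ± 0.08. PSMB1, a proteasome subunit, and TBP, which binds the TATA box, start 961 bases apart and had −0.51 ± 0.09 and −0.38 ± 0.10. These 3 pairs were lower in both NEC libraries than in either ESC library for both genes.

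The other textbook pairs gave mixed values. TK1, the thymidine kinase used in DNA synthesis, had 93.3 and 93.0 CPM in ESCs and 52.9 and 67.7 in NECs. Its partner AFMID, an enzyme of tryptophan breakdown, 84 bases away, had 26.1 and 23.1 CPM in ESCs and 33.2 and 33.1 in NECs. One gene was lower and the other higher in both NEC libraries, and the ratio of AFMID to TK1 moved by 1.07 ± 0.16 on the log2 scale (adjusted p = 0.00485, under the fold threshold). PSMD13, a proteasome subunit, and SIRT3, a mitochondrial deacetylase, overlap at their starts, which lie 385 bases apart. PSMD13 went from 229 and 237 CPM to 126 and 121, SIRT3 from 20.7 and 16.0 to 28.7 and 25.3, and the ratio moved by −1.48 ± 0.16 (adjusted p = 0.00214). ZIC2 and ZIC5, zinc finger transcription factors with starts 9863 bases apart, had log2 fold changes of 0.31 ± 0.10 and −0.36 ± 0.13 and a ratio change of 0.67 ± 0.10 (adjusted p = 0.00537). ATM, the kinase that signals DNA breaks, and NPAT, a regulator of histone genes, had values of 0.05 ± 0.09 and −0.21 ± 0.10, and did not pass a test. The collagen genes COL4A1 and COL4A2 were both higher in each NEC library than in either ESC library, with 0.39 ± 0.12 (adjusted p = 0.0316) and 0.76 ± 0.10 (adjusted p = 0.0011). FEN1, a flap endonuclease, had −0.37 ± 0.10 beside 0.00 ± 0.12 for C11orf10. COL4A3 was under the filter with 7 to 10 reads a library, and COL4A4, with 15 to 26 reads, had −0.78 ± 0.37 (adjusted p = 0.107). WT1 and WT1-AS had at most 2 reads in any library. SURF1 and SURF2 shared a divergent bait on which other starts were nearer to each other, and SURF2 had −0.78 ± 0.12 (adjusted p = 0.00215) where SURF1 had −0.05 ± 0.12.

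EMX2, a homeobox factor of the dorsal forebrain, and its antisense transcript EMX2OS were both called. EMX2 had no read in either ESC library and 243 and 123 reads in the NEC libraries (11.4 and 4.99 CPM), at least 58.4-fold higher when set against 3 reads per library. EMX2OS had 0 and 1 reads in ESCs and 90 and 45 in NECs, at least 21.5-fold higher. The starts lie 2624 bases apart, and the genes overlap and share exonic bases.

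Among the pairs with gene symbols and an average of at least 1 on the log2 CPM scale, 14 were called higher in both genes. The 5 with the largest smaller change were ZNF503 with ZNF503-AS2, ZNF467 with SSPO, DIO3OS with DIO3, SOX21 with SOX21-AS1, and SLC6A16 with CD37. ZNF503, a zinc finger repressor, had 0.265 and 0.324 CPM in ESCs and 55.1 and 37.5 in NECs, with a log2 fold change of 7.25 ± 0.32 (adjusted p = 2.21e-05). ZNF503-AS2 had 0 and 0.162 CPM in ESCs and 10.8 and 7.62 in NECs (6.57 ± 0.59, adjusted p = 0.000242), and overlaps ZNF503 in exons. SOX21, a neural SOXB2 factor, and SOX21-AS1 start 581 bases apart and do not overlap. SOX21 had 9.70 and 5.38 CPM in ESCs and 99.7 and 98.2 in NECs, and SOX21-AS1 had 3.76 and 1.42 and then 33.5 and 31.9. The log2 fold changes were 3.73 ± 0.24 (adjusted p = 8.28e-05) and 3.70 ± 0.37 (adjusted p = 0.000343), and their ratio moved by −0.01 ± 0.33 (adjusted p = 0.992). DIO3, which inactivates thyroid hormone, rose from 5 reads in each ESC library to 102 and 65 in NECs (3.97 ± 0.48, adjusted p = 0.000739). DIO3OS rose from 3 and 1 reads to 205 and 98, at least 48.4-fold, and its annotated exons share 137 bases with those of DIO3. ZNF467 and SSPO start 2563 bases apart and had log2 fold changes of 5.09 ± 0.69 and 3.98 ± 0.33. SLC6A16 and CD37, a tetraspanin known from leukocytes, start 9954 bases apart and had 3.39 ± 0.37 and 3.85 ± 0.29.

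Only 4 pairs met the same conditions in the other direction. CLDN6, a tight junction protein of pluripotent cells, had 575 and 495 CPM in ESCs and 49.4 and 148 in NECs (−2.43 ± 0.46, adjusted p = 0.00429). TNFRSF12A, a receptor of the TNF family 241 bases away, had 51.9 and 46.6 in ESCs and 10.4 and 16.8 in NECs (−1.85 ± 0.22, adjusted p = 0.000653). Both genes were higher in the second NEC library than in the first and below the ESC libraries in both. Exons of these genes share 40 bases in the GENCODE annotation. NECAB1 and TMEM64 overlap at their starts, 82 bases apart, and fell with log2 fold changes of −2.78 ± 0.17 and −2.68 ± 0.16, and their ratio moved by −0.11 ± 0.16. SCNN1A, an epithelial sodium channel subunit, and LTBR, a lymphotoxin receptor, overlap in exons and fell with log2 fold changes of −3.96 ± 0.36 and −3.21 ± 0.46. PKP3, a desmosomal plakophilin, and SIGIRR lie tail to tail with starts 24841 bases apart, with log2 fold changes of −5.06 ± 0.64 and −1.71 ± 0.30. SIGIRR lost its call without the second NEC library (−1.32).

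The ratio of the paired genes was tested in 1 fit over 2230 nearest pairs on 1 bait, and it changed past the threshold in 354 (15.9%). Of these, 307 were among the 1921 divergent pairs, 16.0%. The share was 17.6% in close head-to-head pairs, 25.8% at longer head-to-head gaps, 11.1% in overlapping pairs with starts up to 1 kb apart and 13.3% with starts further apart. In 98 pairs the ratio changed, the bodies did not overlap by the count table's spans and both genes had a symbol and sufficient expression. Such pairs can still share exons in the GENCODE annotation. Of the 6 with the largest change, 5 are described next.

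DLL1, a ligand of the Notch receptors, and FAM120B start 230 bases apart (bait chr6:170596253-170603648). DLL1 had 0.848 and 1.01 CPM in ESCs and 78.7 and 67.0 in NECs, a log2 fold change of 6.27 ± 0.17 (adjusted p = 9.6e-06). FAM120B had 35.1 and 36.6 CPM in ESCs and 56.2 and 54.0 in NECs, a log2 fold change of 0.62 ± 0.09, under the fold threshold. FAM120B was thus expressed in both cell types while DLL1 was near 1 CPM in ESCs, and the ratio of FAM120B to DLL1 moved by −5.65 ± 0.16 (adjusted p = 0.000179). Their exons share 370 bases in the GENCODE annotation. CRB1, a polarity protein of the neuroepithelium, had 1 read in each ESC library and 91 and 85 in NECs, at least 27.5-fold higher, while ZBTB41, 920 bases away, had a log2 fold change of 0.79 ± 0.24. C1orf228 went from 2 reads in each ESC library to 95 and 107, at least 31.3-fold, beside 0.26 ± 0.11 for TMEM53, 137 bases away. NCAN, a proteoglycan of the brain matrix, had 2.28 and 1.94 CPM in ESCs and 47.1 and 49.6 in NECs (4.52 ± 0.14, adjusted p = 1.21e-05), whereas NR2C2AP had −0.26 ± 0.11. In all 4 of these pairs 1 gene was called higher and its partner was not called.

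WNT1 and WNT10B, Wnt ligands with starts 6852 bases apart, both had higher means in NECs. WNT1 had no read in ESCs and 171 and 32 reads in NECs, at least 33.2-fold higher. WNT10B had 21 and 43 reads in ESCs and 141 and 52 in NECs (1.58 ± 0.57, adjusted p = 0.0486), and its call was lost without any of 3 of the libraries (1.29 without the first ESC library, 1.95 without the second and 0.55 without the first NEC library).

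**Figure D3:**
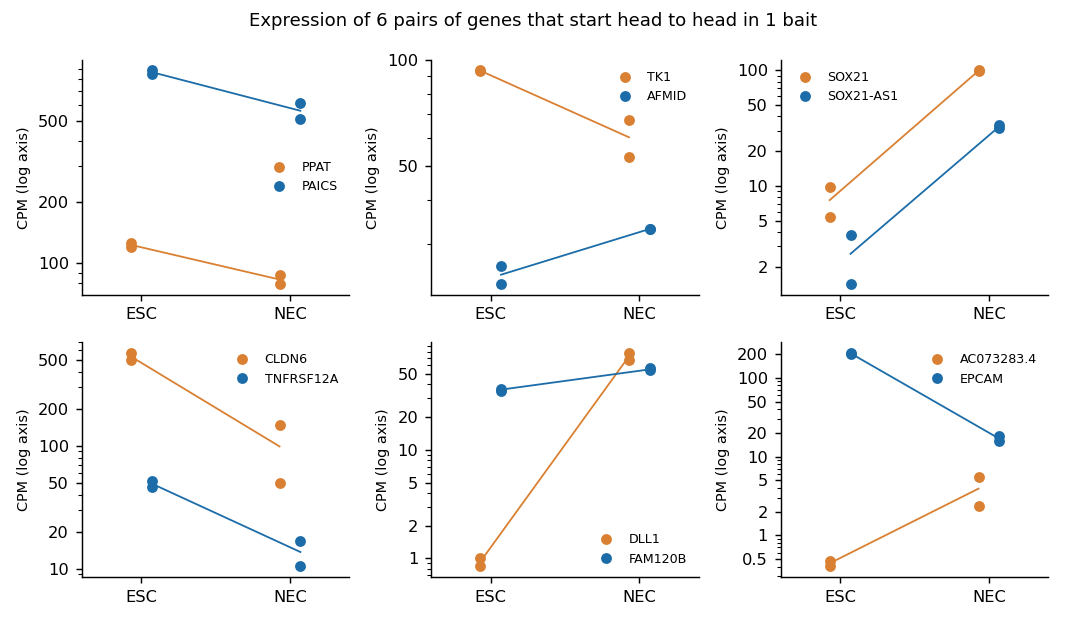
CPM in each library (points, y axes on log scales that differ between panels) and group means (ends of the lines) in ESCs and NECs, 2 libraries each, for 6 head-to-head pairs. Both genes of PPAT and PAICS and of CLDN6 and TNFRSF12A are lower in NECs, both of SOX21 and SOX21-AS1 are higher, and in the pairs of TK1, DLL1 and EPCAM the genes part.

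Of the 5 pairs whose genes were called in opposite directions, 4 are described. EPCAM, the epithelial adhesion molecule, had 201 and 209 CPM in ESCs and 15.5 and 18.2 in NECs, a log2 fold change of −3.60 ± 0.11 (adjusted p = 1.21e-05). The noncoding gene AC073283.4, which starts 84 bases away, had 0.477 and 0.405 CPM in ESCs and 5.48 and 2.35 in NECs (3.14 ± 0.52, adjusted p = 0.00257). The ESC and NEC libraries did not overlap for either gene, and the ratio of EPCAM to AC073283.4 moved by −6.71 ± 0.60 (adjusted p = 0.00141). WDR63, a ciliary dynein subunit, rose by 2.73 ± 0.37 and MCOLN2, a lysosomal channel, had −3.08 ± 0.59, with at most 44 and 23 reads in any library. SEMA4F, a semaphorin, had 2.00 ± 0.15 and C2orf65 −4.45 ± 0.68, with starts 5890 bases apart. LIPE, the hormone-sensitive lipase, had 1.72 ± 0.21 and AC011497.1, which overlaps it in exons, −2.22 ± 0.30.

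Genes of DNA repair and replication were often on divergent baits, 27 of the 48 listed genes that started on a bait (56.2%). Over all genes that started on a bait the share was 29.5%. The list has genes such as ATM, PRKDC and MCM4 in common with the textbook pairs, so its share depends on that choice. Of the 27, 25 had a protein-coding partner. None of the 27 was called in either direction by edgeR, none by DESeq2, and 13 had an unadjusted p under 0.05. Without the fold threshold 3 were higher (11.1%) and 9 lower (33.3%), against 31.5% and 29.7% of all tested genes. Their partners were called in 2 cases. PURG, a DNA-binding protein that starts 86 bases from the helicase gene WRN, had a log2 fold change of 1.52 (adjusted p = 0.000956) while WRN had −0.05 ± 0.09. The noncoding gene RP11-387D10.2, 186 bases from the helicase gene BLM, had 1.61 (adjusted p = 0.0094) where BLM had −0.21 ± 0.12.

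Genes of the mitochondrial ribosome and translation were on divergent baits in 21 of 43 cases (48.8%), against 29.5% over all genes. None of the 21 was called by edgeR or DESeq2, and 18 had an unadjusted p under 0.05. All 21 log2 fold changes were negative, with a median of −0.47, and 16 passed the adjusted p alone, all lower. Over all tested genes 49.3% were negative and 29.7% were lower at that threshold. MRPL32 had the largest, from 90.2 and 94.7 CPM in ESCs to 34.1 and 40.4 in NECs (−1.31 ± 0.11), and its partner PSMA2, a proteasome subunit whose start lies 23 bases inside it, had −0.97. The tested partners had a median of 0.27. Noncoding partners of MRPS9 (AC010884.1, which overlaps it, 3.86), MRPS16 (RP11-152N13.5, 1.58) and MRPS30 (RP11-53O19.1, 1.69) were called higher, where the ribosomal genes had −0.47 ± 0.09, −0.43 ± 0.08 and −1.01 ± 0.10.

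Developmental transcription factors were also frequent, 32 of 58 (55.2%, against 29.5% over all genes), and 24 of the 32 had a long noncoding partner. This list too has genes in common with the textbook pairs, such as EMX2, ZIC2 and ZIC5. Of 25 that were tested, 15 were called higher in NECs (60.0%) and 1, LHX1, lower (4.0%), with a median of 3.32. Over all tested genes the shares were 11.4% and 9.68%. The whole list, on divergent baits or not, had 32 of 48 tested genes called higher (66.7%), with a median of 3.54. For 10 of the 15 the partner was tested as well, and in all 10 it was called higher too. In 6 of these the bodies overlap: LHX5, EMX2, MEIS2, IRX1, NR2F1 and NR2F2. The other 4 were SOX21, IRX5, POU3F1 and POU3F3, whose partners lie head to head without overlap. POU3F1, a POU factor of the epiblast and neural plate, had 12.03 and 6.03 CPM in ESCs and 32.6 and 34.2 in NECs (1.90 ± 0.29, adjusted p = 0.00184), and its partner RP5-884C9.2 had 2.68 (adjusted p = 0.0025). IRX5 had 1.11 and 0.890 CPM in ESCs and 11.7 and 8.23 in NECs (3.32 ± 0.30, adjusted p = 0.000237), and CRNDE, 1673 bases away, had 2.27 (adjusted p = 0.000369). POU3F3 had 3 and 0 reads in ESCs and at least 69.7-fold more in NECs. NR2F1, an orphan nuclear receptor of the forebrain, had 0 and 0.0809 CPM in ESCs and 199 and 126 in NECs. MEIS2, a TALE homeobox factor, had 0.265 and 0.324 CPM in ESCs and 95.0 and 82.5 in NECs (8.19 ± 0.19, adjusted p = 5.87e-06).

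Of the marker genes that started on a bait, the divergent baits held 1 of 6 pluripotency, 2 of 9 neuroectoderm, 4 of 10 neural crest and 2 of 10 mesendoderm markers, where over all genes the share was 29.5%. DPPA4, a pluripotency factor, had 612 and 689 CPM in ESCs and 132 and 202 in NECs (−1.96 ± 0.20, adjusted p = 0.000425), and the untyped gene AC124945.1 246 bases away had −2.43 ± 0.43 (adjusted p = 0.00316). HES5, a target of Notch signalling, had no read in ESCs and 27.3 and 24.0 CPM in NECs, at least 183-fold higher, and SIX3, a factor of the anterior neural plate, had 3.34 ± 0.58. The neural crest genes were uneven between the NEC libraries, and 9 of the 10 listed were higher in the first. PAX3 had 66.3 and 17.9 CPM in the NEC libraries against 0.265 and 0.324 in ESCs, TFAP2A had 117 and 17 reads against 1 and 0, and TWIST1 had 54 and 18 reads against 12 and 5 (adjusted p = 0.0585, not called). FOXD3, which acts in pluripotent cells and neural crest, had 15.05 and 16.1 CPM in ESCs and 8.70 and 0.365 in NECs (−1.81 ± 0.94, adjusted p = 0.136). FOXD3 was called lower without the first NEC library (−5.39), with the replicate block (−2.36) and without the filter on low counts (−1.81). RP4-792G4.2, which overlaps it, was called lower (−3.87 ± 0.55, adjusted p = 0.00139). The mesendoderm genes GATA6 (−1.90 ± 0.69, adjusted p = 0.0506) and TBX6 (−0.74 ± 0.32, adjusted p = 0.085) were not called, and GATA6 had 27 reads in one ESC library and 170 in the other. GATA6 was called lower by DESeq2 (−1.91), with DESeq2's size factors (−1.92), with the replicate block (−1.66), without the filter (−1.90) and without the first ESC library (−2.62). TWIST1 was called higher with the block (1.93), without the filter (1.99), without the first ESC library (2.94) and without the second NEC library (2.65).

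Contacts were read from lists of bait and PIR pairs with a CHiCAGO score of at least 12, a significance score against a background of distance and fragment biases. There was 1 list for each replicate and 1 for the merged replicates of each cell type. The lists hold no read numbers, so the depth behind a contact is unknown. In the merged lists 85.0% of divergent baits had at least 1 PIR in ESCs and 86.4% in NECs, against 80.9% and 82.8% of single-start baits. In single replicates the shares were 88.7% and 89.9% (ESC) and 89.1% and 88.4% (NEC) for divergent baits, and 88.0%, 89.3%, 89.3% and 87.9% for single-start baits, so the sets were closer there and in the first NEC replicate in reverse order. Baits with any PIR had a median of 4 in each cell type (quartiles 2 and 8), and single-start baits had 3. The mean over all divergent baits was 5.51 PIRs for ESCs and 5.54 for NECs, and over single-start baits 4.61 and 4.65. Same-strand baits had 5.98 and 6.08. Baits were also split by length at 4.93 and 9.56 kb. In ESCs the mean was 5.35 in divergent against 4.32 in single-start baits for short baits, 6.09 against 4.91 for middle lengths and 5.17 against 4.62 for long ones. In single replicates the means of divergent baits were 4.83 and 4.42 (ESC) and 5.12 and 4.48 (NEC), and the cell types overlapped.

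The PIR was itself a bait in 32.8% of the ESC and 33.2% of the NEC interactions of divergent baits. Of those bait PIRs, 20.8% and 21.4% were divergent baits again, against 17.5% and 18.7% for interactions of single-start baits and 21.2% and 20.6% for those of same-strand baits. Bait and PIR lay a median of 181 kb apart in the merged ESC list and 215 kb in the merged NEC list. Single replicates gave longer medians, 346 and 353 kb for ESCs, 400 and 376 kb for NECs. Single-start baits moved in the same direction in the merged lists, from 198 to 216 kb.

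Of the interactions of divergent baits in ESCs, 46.6% were also called in NECs, and 46.5% of those in NECs were also called in ESCs. The corresponding shares were 44.4% and 43.98% for single-start baits and 49.9% and 49.1% for same-strand baits. As a share of all calls in either list, the merged lists had 30.3% in common. Single replicates had less in common by the same measure. The ESC replicates had 16.7% of all their calls in common, the NEC replicates 15.2%, and pairs of an ESC and a NEC replicate between 13.3% and 16.6%. An interaction was counted as gained where it was called in both NEC replicates and neither ESC replicate, and as lost in the reverse case. Gained interactions were found at 712 divergent baits (23.6%, 1161 interactions), against 20.1% of all baits. Lost ones were found at 712 as well (1138 interactions), against 21.7% of all baits. A further 1480 interactions at 690 divergent baits were called in all 4 replicates.

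Numbers of contacts differed between the cell types where both genes were called higher. The 57 baits of such pairs had a mean of 5.37 PIRs in the first and 4.95 in the second ESC replicate, and of 6.96 and 6.60 in the corresponding NEC replicates, above both ESC values. At 18 of the 57 baits (31.6%) both NEC replicates had more PIRs than either ESC replicate, and at 5 (8.77%) both had fewer. Over all baits these shares were 13.1% and 12.8%, and over the 1518 pairs with no gene called they were 14.8% and 12.8%. Gained interactions were found at 38.6% of the 57 and lost ones at 17.5%, against 21.5% and 23.6% where no gene was called. In the merged lists the median over the 57 was 4 PIRs for ESCs and 5 for NECs. The 3 baits with the largest rise, those of EMX2, ZNF503 and IRX5, went from a mean of 11.3 and 11 to 23.7 and 17, and without them the means were 5.04 and 4.61 (ESC) and 6.04 and 6.02 (NEC). Among the 23 pairs with separate gene bodies the means were 5.78 and 5.78, then 6.96 and 7.04. At 9 of these 23 baits both NEC replicates had more PIRs than either ESC replicate, and at 2 both had fewer. Gained interactions were found at 39.1% of the 23 and lost ones at 30.4%. In the merged lists 12 of the 23 had more PIRs in NECs and 9 had fewer.

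Where both genes were called lower, the means over 40 baits were 5.15 and 4.75 PIRs (ESC) and 5.03 and 4.78 (NEC), with 8 of them higher and 9 lower in both NEC replicates. Where 1 gene was called higher, the means of the 181 baits were 5.15 and 4.64 (ESC) and 5.52 and 5.12 (NEC). Where 1 gene was called lower, the 120 baits had 4 and 3.96, then 4.19 and 3.72. The 5 baits of genes called in opposite directions had 4.2 and 4.6 (ESC) and 2.8 and 3.2 (NEC), fewer in NECs without overlap. In the merged lists the means of these 5 baits went the other way, 2.2 for ESCs and 2.8 for NECs. Only 1 of the 5 baits had fewer PIRs in both NEC replicates than in either ESC replicate. With no test between classes, these values are a description.

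**Figure D4:**
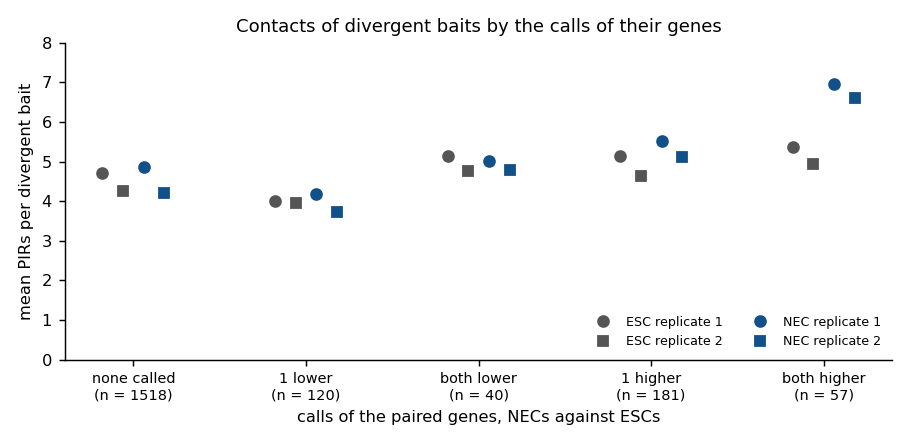
Mean number of PIRs per divergent bait (y axis, from 0) in each PCHi-C replicate, by how the paired genes were called in NECs against ESCs (x axis, with the number of baits); circles are replicates 1 and squares replicates 2. The replicates of both cell types overlap in the other 4 classes plotted (the 5 baits of genes called in opposite directions are not plotted), and the NEC replicates lie above both ESC replicates where both genes were called higher.

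The baits of the 15 transcription factors called higher had a difference in the same direction, and 10 of them are among the 57 above. Their PIRs summed to 140 and 116 in ESC replicates 1 and 2, and to 188 and 185 for the NEC pair, and 8 of the 15 had more in both NEC replicates than in either ESC replicate while none had fewer. Over all divergent baits 16.1% had more and 12.5% fewer by this measure. The 16 divergent baits of listed factors not called higher had sums of 179 and 149 (ESC) and 224 and 164 (NEC). Of these 16, 4 had more and 2 fewer. EMX2 (bait chr10:119299926-119306874) had 12 and 6 PIRs in ESC replicates 1 and 2, then 20 and 14 for NECs, with 8 and 23 in the merged lists. SOX21 (chr13:95357090-95366898) had 9 and 7, then 16 and 19. The ZNF503 bait (chr10:77152036-77167684), which carries no listed factor, had 9 and 10, then 28 and 18, with 7 gained interactions and none lost. Not every such bait moved this way, and the bait of MEIS2 had 4 PIRs in the merged ESC list and 1 in the NEC list. The bait of TFAP2A (chr6:10408660-10429428) went from 6 and 7 to 24 and 14.

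The contacts of other named baits moved in different directions. The bait of DLL1 and FAM120B had 4 and 1 PIRs in ESC replicates 1 and 2, then 20 and 10 for NECs, with 6 gained interactions. In the merged lists the ESC list held 11, the NEC list 23, and 9 were shared. The EPCAM bait had 3 and 2, then 3 and 3, and the NCAN bait 6 and 4, then 3 and 4. For the pair of PAICS and PPAT the numbers were 9 and 4, then 10 and 5. The bait of PRKDC and MCM4 went from 16 and 16 to 10 and 5, with 6 interactions lost.

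None of the genes named here on the divergent baits with the most contacts was called. Of them only HIST1H2BK, HIST1H3G and METTL9 passed the filter on low counts. A bait of 2078 bases in the histone cluster of chromosome 6, with HIST1H2BK and HIST1H2AH, had 90 PIRs by the merged ESC list and 96 by the NEC list, and 69 were shared. A second histone bait, with HIST1H3G and HIST1H2BI, had 37 and 66. Histone genes are near-identical copies whose reads may be misassigned, so their expression is uncertain, and all 4 had between 1 and 380 reads a library. HIST1H2BK alone passed the threshold in 1 alternative, 2.05 without the second ESC library. The HOXC9 bait, without a read for HOXC9 or its antisense neighbour AC012531.16 in any library, had 64 and 66 PIRs, of which 47 were shared. The bait of METTL9 and AC005632.1 had 60 PIRs for ESCs but 17 for NECs, and its replicates had 55 and 41, then 24 and 13, with 14 interactions lost and 1 gained. METTL9, a histidine methyltransferase, had 113 and 109 CPM in ESCs and 145 and 138 in NECs (0.35 ± 0.08, under the fold threshold). The bait of WT1 and WT1-AS, hardly read in either cell type, had 7 and 12, then 0 and 3, with 6 interactions lost.

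Contacts shared by paired genes can be measured only where their starts lie on different baits. Of 2014 such head-to-head neighbours at most 50 kb apart, 1514 had PIRs at both baits in ESCs, and 955 of these (63.1%) had at least 1 PIR in common. In NECs it was 973 of 1535 (63.4%). The median share of the PIRs of both baits that was common to them was 12.5% in ESCs and 11.1% in NECs. These are values of neighbouring fragments, and for a pair on 1 bait no such number exists.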

How the data were processed

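PCHi-C and mRNA-seq of H9 ESCs and day 7 NECs were analysed, with 2 samples each. The conventional Hi-C samples were not analysed here. Per the labels, TopHat2 2.0.8b and Bowtie 1.0.0 were among the processing tools. The authors mapped RNA reads to GRCh37 and deposited raw counts per gene without regard to strand. They scored PCHi-C contacts with CHiCAGO, and the deposited lists hold score values of at least 12 per HindIII fragment pair, for each replicate and for merged replicates. All 21833 baits are flanked by HindIII sites in the GRCh37 sequence used here. Gene types and exons came from GENCODE v44 lifted to GRCh37, which covered 28730 genes. Arrangement and overlap of gene bodies came from the spans of the count table. Pairs with separate bodies or head-to-head starts can therefore share GENCODE exons.

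Counts were normalised by TMM and tested with edgeR 4.0.16 (R 4.3.3) after filterByExpr with a minimum count of 10. The SE printed after ± was derived from the test, as the size of the log2 change divided by the square root of its F statistic. The ratio of paired genes was an interaction of gene and cell type with library as a block. DESeq2 1.42.0 and limma 3.58.1 served as alternatives. The tests were checked on simulated data. Library totals ran from 19234087 to 25356382, which limits genes with few reads. Folds against a group with at most 3 reads per library are bounds set at 3 reads per library.

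Named pairs were the textbook pairs, the 5 with the largest smaller change called higher, those called lower, the 6 largest ratio changes, those called in opposite directions, the 3 baits with the most PIRs per merged list, and markers. Members, lists and rules were chosen with earlier results of these data known, and other genes of the lists were named after their values were seen. Some pairs and genes that these rules select are not reported here.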

Additional observations from a re-analysis of the deposited data

How the results depend on the processing

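Counts moved most with the choice of pairs and threshold. Without the fold threshold 1514 genes on divergent baits were higher and 1438 lower in NECs, 483 pairs were called in one direction (97 with it) and 201 in opposite directions (5 with it), and 956 ratios changed (307 with it). Restricted to separate gene bodies the pairs in one direction were 35, rho 0.22 and changed ratios 204. With both genes protein-coding these were 21, 0.21 and 176, and 2 pairs were opposite. Settings added after seeing the data gave 37 pairs, 0.19 and 202 without shared exons, and 19 pairs, 0.22, 142 ratios and 2 opposite pairs for close head-to-head pairs. Without the filter on low counts 8 pairs were opposite. Leaving out 1 library gave 367 to 496 genes higher, 289 to 359 lower, 84 to 113 pairs in one direction, 4 to 9 opposite, 271 to 399 ratios and a rho of 0.31 to 0.33. Fitting the replicate number as a block gave 426 and 310 genes, 95 and 5 pairs, 308 ratios and a rho of 0.33, and same-numbered libraries deviated with a correlation of 0.061, so the numbers alone do not pair them. Divergent baits numbered 1740 with a head-to-head pair and 1426 from protein-coding genes. A score of at least 15 left a median of 2 PIRs in ESCs and 2 in NECs and 43.9% of PIRs on baits. That share was 37.5% for protein-coding baits and 29.5% to 36.0% in single replicates, against 33.0%. Interactions shared between cell types, 46.6%, were 67.6% when PIRs within 10 kb counted and 23.4% to 28.4% between single replicates. Among named values near 0, C11orf10 turned to −0.019 with DESeq2's size factors and to −0.019 with DESeq2's test, SURF1 to 0.0096 with library size alone, and the ratio of SOX21-AS1 to SOX21 to 0.037 with limma and to 0.0046 with the replicate block. Leaving out 1 library gave −0.019 to 0.12 for ATM, −0.16 to 0.15 for C11orf10, −0.17 to 0.038 for SURF1, −1.35 to 3.23 for the ratio of ZNF503-AS2 to ZNF503, −2.65 to 0.018 for SSPO to ZNF467, −0.23 to 0.32 for SOX21-AS1 to SOX21 and −0.24 to 0.012 for NECAB1 to TMEM64. WNT10B lost its call with DESeq2's size factors (1.56) and with the replicate block (1.39), and FOXD3 (−2.36), GATA6 (−1.66) and TWIST1 (1.93) gained one with the block. PCHi-C depth is unknown, so absent contacts may be undetected. The causes of these shifts were not tested.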
